A study of Mus musculus with 12 samples.

Results

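The nuclear genes for the subunits of oxidative phosphorylation were followed after irradiation in MODE-K, an epithelial line from mouse small intestine. Members were the annotated genes whose symbols name subunits of complexes I to V (Nduf, Sdh, Uqcr, Cox4 to Cox8 and Atp5 families), with no symbol ending in -ps among them. There were 86 such genes of 33625 in the table: 38 of complex I, 4 of complex II, 8 of complex III, 18 of complex IV and 18 of complex V. The 4 groups of 3 libraries were cells taken 48 h after 12 Gy (12Gy_48h), 24 h after 12 Gy (12Gy_24h) and 48 h after 4 Gy (4Gy_48h), and unirradiated cells taken at 0 h (control). All were wild type, were grown in DMEM with serum and antibiotics, and came from total RNA. The irradiated groups received gamma rays from a cobalt source at 87 cGy/min. No control was cultured for 24 h or 48 h, so in any comparison with control the effects of dose and of culture time cannot be told apart, and 12Gy_48h against 12Gy_24h holds time after irradiation and time in culture together. The labels do not say whether the 3 libraries of a group came from separate cultures, and p-values here therefore reflect only how far these libraries differ, which can be technical.

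Oxidative phosphorylation takes electrons from NADH through complex I and from succinate through complex II, passes them through complex III and cytochrome c to complex IV, and uses the resulting proton gradient to drive complex V, the ATP synthase. The nuclear genome encodes most subunits and mitochondrial DNA encodes the rest, and the nuclear subunits are imported into the organelle. Several complex IV subunits and the ring subunit of complex V have alternative genes, some of them specific to heart and skeletal muscle.

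Of the 86 members, 79 had enough reads to be tested. The other 7 were Ndufa4l2, with 16 reads in all 12 libraries together, Cox7b2 with 5, Cox6b2 with 3, Cox4i2 with 1, and Cox8b, Cox8c and a second locus named Atp5o with 0. Ndufa4l2 and Cox4i2 are alternative forms known from oxygen-poor cells, Cox8b is the heart and muscle form of subunit VIII, and Cox6b2 and Cox8c are testis forms. At this depth, 3616416 to 4831641 reads per library, no change in these 7 could be detected. The tested members were short, with a median transcript length of 838 nt against 2876 nt for the known genes tested. Of the 79, 37 overlapped another annotated gene, 29 of them one on the opposite strand. Use of strand in the counting is not given in the sources used here, so reads of opposite-strand pairs cannot be told apart. Strand could not separate the reads of pairs on the same strand.

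Levels are given as CPM, a gene's reads relative to the library total after TMM scaling of the libraries over all genes. The loci without annotation held 14.0 to 15.1% of reads at 12Gy_48h, 11.9 to 12.0% at 12Gy_24h, 15.1 to 16.9% at 4Gy_48h and 19.8 to 21.7% in control. Scaled over all genes, the median known gene lay 0.20 (log2) above control at 12Gy_48h, 0.23 above at 12Gy_24h and 0.14 above at 4Gy_48h. Each test is therefore also given with known genes alone, that is scaled and tested without the unannotated loci, where those medians lay between -0.01 and 0.01. The threshold for a member was an adjusted p of 0.05 (Benjamini-Hochberg, over every gene tested) in edgeR's quasi-likelihood test.

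The line's epithelial label had little support among the marker transcripts. Of 9 epithelial markers 3 had 10 reads or more in all, of which Krt18 was the most abundant. Krt8, Epcam, Cdh1 and Vil1 lay between 0 and 0.523 CPM in every library, and the list summed to 8.90 to 9.17 CPM at 12Gy_48h, 13.5 to 18.5 at 12Gy_24h, 7.90 to 8.09 at 4Gy_48h and 1.79 to 6.45 in control. The 7 fibroblast and mesenchymal markers summed to 1738 to 2193, 2759 to 3161, 1543 to 1980 and 902 to 1426 CPM in the same groups, most of it vimentin. The intestinal lineage, immune and endothelial lists had no marker with 10 reads in all. In bulk RNA, a change in the share of a kind of cell and a change in RNA per cell cannot be told apart, and the part of the marker shift in the results below was not tested.

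Taken as a share of all reads on known genes, the members held 3.79 to 3.94% at 12Gy_48h, 4.22 to 4.29% at 12Gy_24h, 3.89 to 4.04% at 4Gy_48h, and 4.56, 4.03 and 4.17% in control. The 12Gy_24h libraries lay above all 6 libraries taken at 48 h. Control replicate 1 stood apart from the other controls: it was the deepest library, and its complex IV share was 1.44% against 1.13 and 1.18%. The mean annotated transcript length of known genes, weighted by reads, was 1761 nt in it against 1857 and 1824 nt. The same mean length was 1915 to 1922 nt at 12Gy_48h, 1834 to 1843 nt at 12Gy_24h and 1836 to 1879 nt at 4Gy_48h. Reads at 12Gy_48h thus fell, on average, on genes with longer annotated transcripts.

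**Figure D1:**
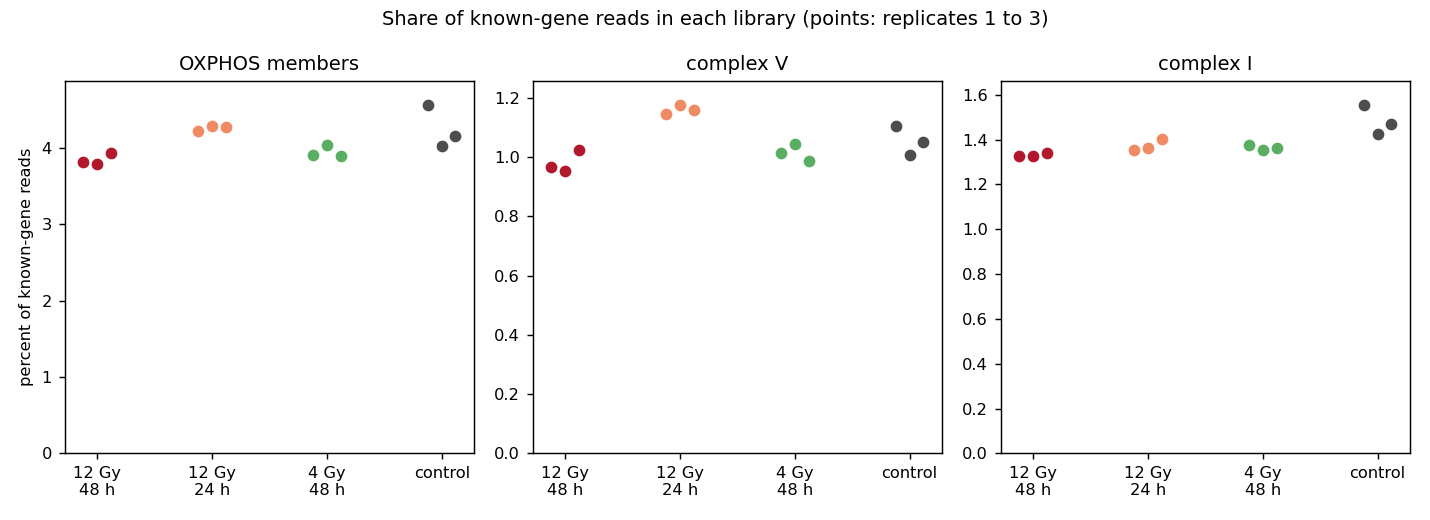
Share of known-gene reads (percent, axis from 0) held by all OXPHOS members, by complex V and by complex I in each library. Points are the 3 replicates of each group. For all members the 12Gy_24h points sit at 4.22 to 4.29%, above the 12Gy_48h points at 3.79 to 3.94%, and control replicate 1 is the highest at 4.56%.

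Promoters of some of the members that rose at 12Gy_24h on both scalings, and of a ring subunit gene that did not, are shown here because they carry the motifs usually discussed for this gene class. The windows run from 250 bases before to 50 after a RefSeq start site and come from RefSeq (GRCm38.p6), which listed 67 of the 85 member symbols with 72 windows. Capitals mark the ETS motif CCGGAAGT, the motif of nuclear respiratory factor 1 (NRF1), which is GCGC on either side of AT, or its open form with any pair of bases in the middle, and the CCAAT box bound by NF-Y, each searched on both strands, so ACTTCCGG and ATTGG are the same motifs read from the other strand. The first is Uqcr11 (chr10:80406772-80407071, minus strand), then Uqcrh (chr4:116075021-116075320, minus), Uqcrc1 (chr9:108936398-108936697, plus), Atp5c1 (chr2:10080383-10080682, minus) and Atp5g1 (chr11:96075582-96075881, minus).
Uqcr11: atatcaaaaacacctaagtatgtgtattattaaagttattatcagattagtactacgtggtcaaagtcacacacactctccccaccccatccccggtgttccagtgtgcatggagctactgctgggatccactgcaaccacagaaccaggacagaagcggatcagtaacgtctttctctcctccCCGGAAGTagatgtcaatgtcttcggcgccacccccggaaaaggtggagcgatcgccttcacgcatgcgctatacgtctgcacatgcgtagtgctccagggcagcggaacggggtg
Uqcrh: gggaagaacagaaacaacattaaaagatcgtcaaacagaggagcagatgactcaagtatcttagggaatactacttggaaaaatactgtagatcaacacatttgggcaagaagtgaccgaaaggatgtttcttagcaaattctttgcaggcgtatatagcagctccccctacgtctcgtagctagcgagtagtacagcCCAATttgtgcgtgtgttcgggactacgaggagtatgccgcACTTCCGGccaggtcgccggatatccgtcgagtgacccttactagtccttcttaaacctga
Uqcrc1: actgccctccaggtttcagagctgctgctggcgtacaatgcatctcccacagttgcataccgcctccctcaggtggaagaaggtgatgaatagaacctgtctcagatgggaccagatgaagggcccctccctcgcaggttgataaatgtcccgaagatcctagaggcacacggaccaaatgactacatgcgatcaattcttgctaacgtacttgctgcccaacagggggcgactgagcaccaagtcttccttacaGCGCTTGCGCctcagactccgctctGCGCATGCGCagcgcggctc
Atp5c1: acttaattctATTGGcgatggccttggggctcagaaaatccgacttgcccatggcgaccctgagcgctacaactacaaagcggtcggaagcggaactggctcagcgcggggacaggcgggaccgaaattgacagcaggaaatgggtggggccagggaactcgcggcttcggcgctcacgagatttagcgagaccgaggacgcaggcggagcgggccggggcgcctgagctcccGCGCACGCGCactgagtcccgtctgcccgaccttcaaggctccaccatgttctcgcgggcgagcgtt
Atp5g1: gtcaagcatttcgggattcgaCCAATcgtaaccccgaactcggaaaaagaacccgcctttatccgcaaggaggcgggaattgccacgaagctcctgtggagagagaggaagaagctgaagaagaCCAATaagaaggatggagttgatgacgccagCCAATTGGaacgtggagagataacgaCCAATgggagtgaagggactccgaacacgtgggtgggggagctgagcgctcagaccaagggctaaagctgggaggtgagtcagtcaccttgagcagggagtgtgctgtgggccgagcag

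Uqcr11 and Uqcrh each held an ETS motif, Uqcrc1 held both NRF1 forms close to its start, Atp5c1 held the open NRF1 form, and Atp5g1 held 5 CCAAT boxes, of which a pair overlapped on opposite strands. The full NRF1 motif was in 6.94% of member windows against 0.971% of all 32851 windows, and its open form, which contains the full motif, in 27.8% against 6.23%. The ETS motif was in 6.94% of member windows against 3.89% of all, the YY1 motif AAGATGGCG in 9.72% against 1.40%, and the CCAAT box in 41.7% against 37.4%. Among the members lower at 12Gy_48h than at 12Gy_24h on both scalings, 4 of 29 windows held the ETS motif, 7 the open and 1 the full NRF1 motif, 2 the YY1 motif and 16 a CCAAT box. Among the other tested members these were 1, 13, 4, 5 and 12 of 40 windows. A match is a description of the letters in these windows and was not tied to any factor's binding.

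After 12 Gy, many members were lower at 48 h than at 24 h, across all 5 complexes. At 12Gy_48h, 38 of 79 members were lower than at 12Gy_24h and 1 was higher, Cox6a2. All genes tested gave 11.4% lower and 20.6% higher, and the known genes within the same fit 15.6% and 9.97%. With the known genes scaled alone, 35 of the 38 were still lower, which is 44.3% of the members against 12.6% of known genes (11.1% higher), and Cox6a2 was again higher. Of the 35, 29 passed over all genes whichever library was left out. The median member changed by -0.30 (log2), or -0.25 with known genes alone, where the median known gene changed by -0.06 and -0.01. When the trend with transcript length was also removed, 23 members (29.1%) remained lower, against 11.9% of known genes, and 2 were higher, against 11%; the median was -0.14. The 12Gy_24h libraries also stand in the comparison with control that follows, so the comparisons share them.

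Against control, the picture at 12Gy_24h turned on the scaling. Over all genes, 40 members (50.6%) were higher and 4 (5.06%) lower, against 18.5 and 29.4% of all genes and 26.5 and 3.99% of known genes. With known genes scaled alone, 10 were higher and 10 lower, 12.7% each, against 9.15 and 7.91% of known genes, a share near the background. The median member changed by 0.29 on the first scale and 0.06 on the second. The 10 that were higher on both scalings were Uqcr11, Uqcrh, Uqcrc1, Ndufa8, Ndufa10, Cox7b, Atp5f1 and the F1 genes Atp5a1, Atp5b and Atp5c1. Over all genes each passed whichever library was left out, in fits where the median known gene lay 0.25 to 0.35 above control. Without the length trend, 15 members were higher and 10 lower, against 9.26% and 8.1% of known genes. Of the 10 genes just named, 9 still passed, and Atp5f1 missed with an adjusted p of 0.0515.

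At 12Gy_48h against control, 14 members (17.7%) were lower and 2 (2.53%) higher, against 20.2 and 12.9% of all genes and 3.74 and 18.2% of known genes. With known genes alone 35 members (44.3%) were lower and 0 higher, against 8.04 and 6.76%. The first split, made by edgeR's quasi-likelihood test, was 20 lower and 3 higher at an unadjusted p under 0.05, and DESeq2 called 16 and 2. The 35 included all 14 of the first scaling, of which Cox6a2, Uqcrq, Ndufb9, Atp5g1 and Cox7a2 passed over all genes whichever library was left out. Atp5g2, also among the 14, did not pass when the loci matched to it were added. The count of 14 fell to 6 without 12Gy_48h replicate 1 and to 7 without 12Gy_48h replicate 2, 12Gy_48h replicate 3 or control replicate 3. The count of 2 was 0 without 12Gy_48h replicate 3 and 10 without control replicate 1. The median was -0.07, or -0.25 with known genes alone and -0.13 with the length trend also removed, where 16 members were lower and 2 higher, against 6.54% and 6.32% of known genes.

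**Figure D2:**
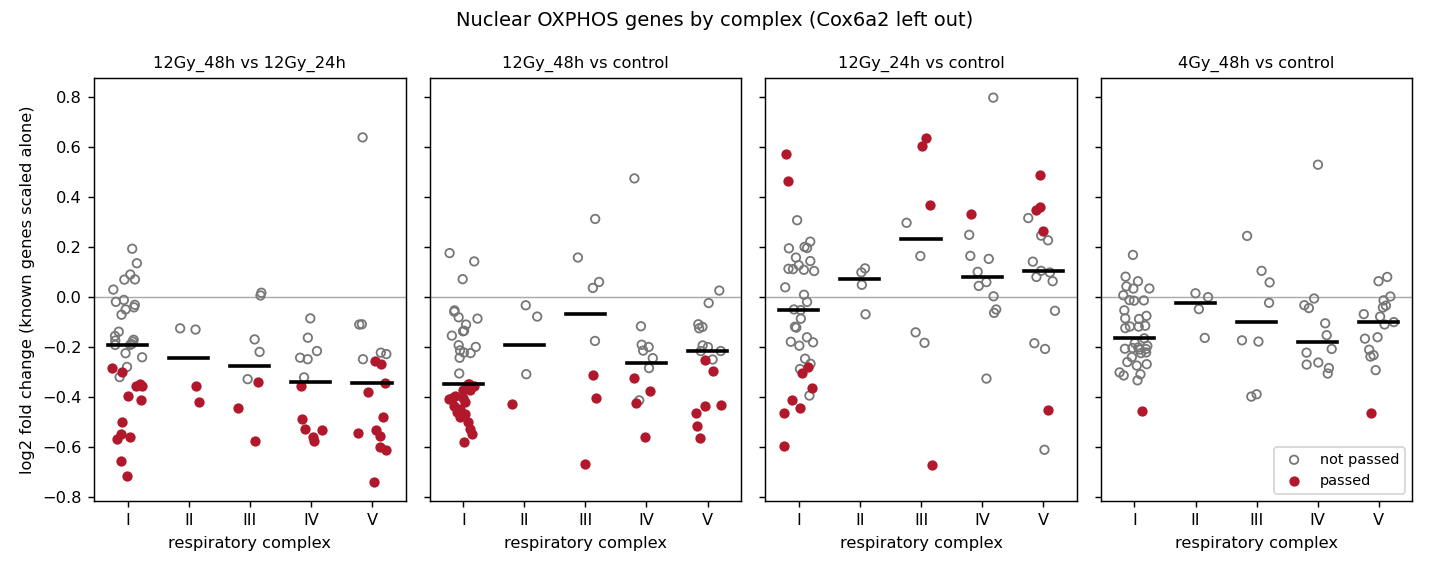
Log2 fold change of each tested member except Cox6a2, by respiratory complex, with known genes scaled alone; filled points passed at an adjusted p under 0.05 in edgeR, open points did not, and bars are medians of the complex. In the comparison of 12Gy_48h with 12Gy_24h every filled point lies below 0, while the 12Gy_24h comparison with control has filled points on both sides of 0.

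Complex I accepts electrons from NADH. Its 7 nuclear core subunits carry the flavin and the iron-sulfur clusters. Ndufs1, the largest of them, had 38.7, 36.7 and 37.6 CPM at 12Gy_48h, 58.7, 63.1 and 70.6 at 12Gy_24h, 49.8, 52.3 and 47.5 at 4Gy_48h, and 44.5, 42.3 and 45.3 in control. Every 12Gy_24h library lay above every other library and every 12Gy_48h library below every other. The change at 12Gy_48h against 12Gy_24h was -0.77 ± 0.12 (log2, SE; adjusted p = 0.000184, edgeR), and -0.72 with known genes alone. Against control, Ndufs1 was 0.54 ± 0.12 higher at 12Gy_24h on the first scale (adjusted p = 0.00105) and 0.31 with known genes alone, where it missed (adjusted p = 0.067). Ndufs8, an iron-sulfur subunit, was also lower at 12Gy_48h than at 12Gy_24h, with a change of -0.46 ± 0.13 (edgeR adjusted p = 0.0107). Ndufv1, which holds the flavin, had 142 to 144 CPM at 12Gy_48h, 149 to 179 at 12Gy_24h, 126 to 147 at 4Gy_48h and 135 to 156 in control, and passed in none of these comparisons on the first scale. Its difference between 12Gy_48h and 12Gy_24h was -0.19 ± 0.11.

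The accessory subunits of complex I were not alike. Of the 21 assigned to the membrane arm and its matrix face, 10 were lower at 12Gy_48h than at 12Gy_24h, 9 of them with known genes alone. Known genes gave 15.6% lower in that comparison, or 12.6% alone. Ndufb2 had 123, 125 and 126 CPM at 12Gy_48h and 212, 195 and 204 at 12Gy_24h, against 163, 134 and 168 in control, and its change from 12Gy_24h was -0.71 ± 0.11 (edgeR adjusted p = 0.000144). Of the 6 accessory subunits of the NADH-binding module, 0 passed in that comparison in edgeR, with 2 lower at an unadjusted p under 0.05 and 2 by DESeq2, and their median was -0.11. Ndufa12 and Ndufs6 had the most negative values of these, both -0.24. Whether the modules differ from each other was not tested.

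Ndufa7 and Ndufs5, both accessory subunits of complex I, were lower than control at both times after 12 Gy. Ndufa7 had 493, 497 and 444 CPM at 12Gy_48h, 473, 464 and 478 at 12Gy_24h, 501, 435 and 529 at 4Gy_48h, and 641, 558 and 621 in control. All 9 irradiated libraries lay below all 3 controls. The changes were -0.34, -0.36 and -0.31 in the order 12Gy_48h, 12Gy_24h and 4Gy_48h (edgeR adjusted p = 0.0119, 0.00505 and 0.0332). With known genes alone they were -0.53, -0.60 and -0.46 (adjusted p = 0.00146, 0.000488 and 0.0206). Over all genes, the 12Gy_48h call was lost without 12Gy_48h replicate 3 (-0.28, adjusted p = 0.0681) or control replicate 3 (-0.29, adjusted p = 0.0508). The 12Gy_24h call was lost without 12Gy_24h replicate 2 (-0.24, adjusted p = 0.0911) or replicate 3 (-0.25, adjusted p = 0.0681). The 4Gy_48h call was lost without 4Gy_48h replicate 1 or 2 or control replicate 1 or 3, with changes between -0.32 and -0.23 (adjusted p 0.0703 to 0.175). Ndufs5 was lower at 12Gy_24h than in control (-0.23, adjusted p = 0.0407), a call that was lost with each of the 6 libraries left out (adjusted p 0.0782 to 0.422), although with known genes alone it was -0.47 (adjusted p = 0.00112). At 12Gy_48h it was -0.29 (adjusted p = 0.0178), lost without any of the 3 libraries at 12Gy_48h or control replicate 3 (adjusted p 0.0570 to 0.0989), and -0.48 with known genes alone.

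Ndufb9 and Ndufc1, also accessory subunits, passed against control over all genes at 12Gy_48h and not at 12Gy_24h. Ndufb9 averaged 506 ± 14.1 CPM at 12Gy_48h, 645 ± 18.1 at 12Gy_24h and 665 ± 53.4 in control (SD, n = 3 each), with -0.39 at 12Gy_48h against control (edgeR adjusted p = 0.00307) and -0.05 at 12Gy_24h, where with known genes alone it was -0.28 and passed (adjusted p = 0.0341). Ndufc1 averaged 275 ± 11.8, 363 ± 19.0 and 354 ± 55.7 CPM in those groups, with -0.36 (adjusted p = 0.0189) and 0.04. The Ndufc1 call was lost without 12Gy_48h replicate 1 or 2 or control replicate 1.

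Ndufa8 and Ndufa10 moved the other way. Ndufa8, a subunit with paired cysteine motifs, had 447, 418 and 463 CPM at 12Gy_48h, 542, 569 and 700 at 12Gy_24h, 462, 451 and 374 at 4Gy_48h, and 338, 360 and 335 in control, so every irradiated library exceeded every control. At 12Gy_24h it was 0.81 ± 0.11 higher than control (edgeR adjusted p = 1.71e-05), and 0.57 with known genes alone. At 12Gy_48h it was 0.36 higher (adjusted p = 0.0201), but 0.17 with known genes alone (adjusted p = 0.29) and not past the threshold without 12Gy_48h replicate 3 (adjusted p = 0.0591). Ndufa10 averaged 561 ± 119 CPM at 12Gy_24h against 345 ± 27.8 in control (SD, n = 3 each; 0.70, edgeR adjusted p = 0.000237, and 0.46 with known genes alone); the 12Gy_24h spread came from replicate 3 at 698 CPM. Ndufa4 is now regarded as a subunit of complex IV but was counted here under complex I, by its symbol. It averaged 952 ± 53.1 CPM at 12Gy_48h, 1462 ± 61.6 at 12Gy_24h, 1102 ± 83.1 at 4Gy_48h and 1085 ± 123 in control, and its change at 12Gy_48h against 12Gy_24h was -0.62. Ndufab1, the mitochondrial acyl carrier protein, had 346, 191 and 240 CPM in control, a range that covered all 9 irradiated libraries except 12Gy_24h replicate 3 at 190.

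Complex II links the citric acid cycle to the chain and has 4 subunits, all nuclear. Sdha, the flavoprotein, had 55.5, 54.5 and 62.7 CPM at 12Gy_48h, 69.0, 75.5 and 84.9 at 12Gy_24h, 66.5, 66.4 and 69.1 at 4Gy_48h, and 71.6, 59.9 and 72.9 in control. Sdhd, a membrane anchor, averaged 140 ± 14.4 at 12Gy_48h, 195 ± 23.8 at 12Gy_24h, 163 ± 5.09 at 4Gy_48h and 153 ± 18.7 in control. Both were lower at 12Gy_48h than at 12Gy_24h, Sdha with a change of -0.41 (edgeR adjusted p = 0.0205) and Sdhd with -0.47 (adjusted p = 0.0084), and both held with known genes alone. The Sdha call was lost without 12Gy_48h replicate 1 or 2 (adjusted p = 0.0729 and 0.0562). When the length trend was also removed, Sdhd missed (-0.33, edgeR adjusted p = 0.0591) and Sdha passed (-0.38, adjusted p = 0.0326). Sdhb, the iron-sulfur subunit, was 0.33 higher at 12Gy_24h than in control over all genes (adjusted p = 0.00856), and 0.10 with known genes alone (adjusted p = 0.5). Sdhc, the other anchor, had 77.6, 144 and 121 CPM in the controls, a range that held every other library except 12Gy_24h replicate 3 at 149, and passed in none of the comparisons.

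Complex III hands electrons from ubiquinol to cytochrome c, and its genes split. The small subunit Uqcr11 had 350, 353 and 428 CPM at 12Gy_48h, 565, 586 and 596 at 12Gy_24h, 410, 485 and 358 at 4Gy_48h, and 381, 291 and 283 in control. The hinge protein Uqcrh had 349, 373 and 380 CPM at 12Gy_48h, 482, 516 and 556 at 12Gy_24h, 324, 395 and 316 at 4Gy_48h, and 310, 277 and 282 in control. For each gene the 12Gy_24h libraries were the 3 highest of the 12. Uqcr11 was 0.87 ± 0.13 above control at 12Gy_24h (edgeR adjusted p = 4.47e-05) and Uqcrh 0.84 ± 0.11 (adjusted p = 6.49e-06), with 0.64 and 0.60 when known genes were scaled alone. Both were lower at 12Gy_48h than at 12Gy_24h, with changes of -0.63 and -0.50. Uqcrc1, a core protein, averaged 163 ± 13.1 CPM at 12Gy_24h against 108 ± 16.3 in control (SD, n = 3 each; 0.60, edgeR adjusted p = 0.000925). At 12Gy_48h Uqcrh was still 0.34 above control (adjusted p = 0.0192), a call lost without 12Gy_48h replicate 3 (adjusted p = 0.0544) and with known genes alone (0.16, adjusted p = 0.29).

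Uqcrq, a ubiquinone-binding small subunit, went the other way. It had 858, 809 and 706 CPM at 12Gy_48h, 809, 797 and 842 at 12Gy_24h, 963, 812 and 1003 at 4Gy_48h, and 1089, 1067 and 1155 in control, with every irradiated library under every control. It was -0.48 ± 0.10 at 12Gy_48h (edgeR adjusted p = 0.00131) and -0.44 ± 0.10 at 12Gy_24h (adjusted p = 0.00132), and over all genes both calls held with any library left out. With known genes alone it was -0.67 at each time. At 4Gy_48h it was -0.25 and missed (adjusted p = 0.0817). The gene of the Rieske iron-sulfur protein, Uqcrfs1, could not be read: it had 87.1, 81.2 and 84.9 CPM at 12Gy_48h, but 127, 113 and 18.7 at 12Gy_24h and 103, 26.1 and 49.3 in control.

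**Figure D3:**
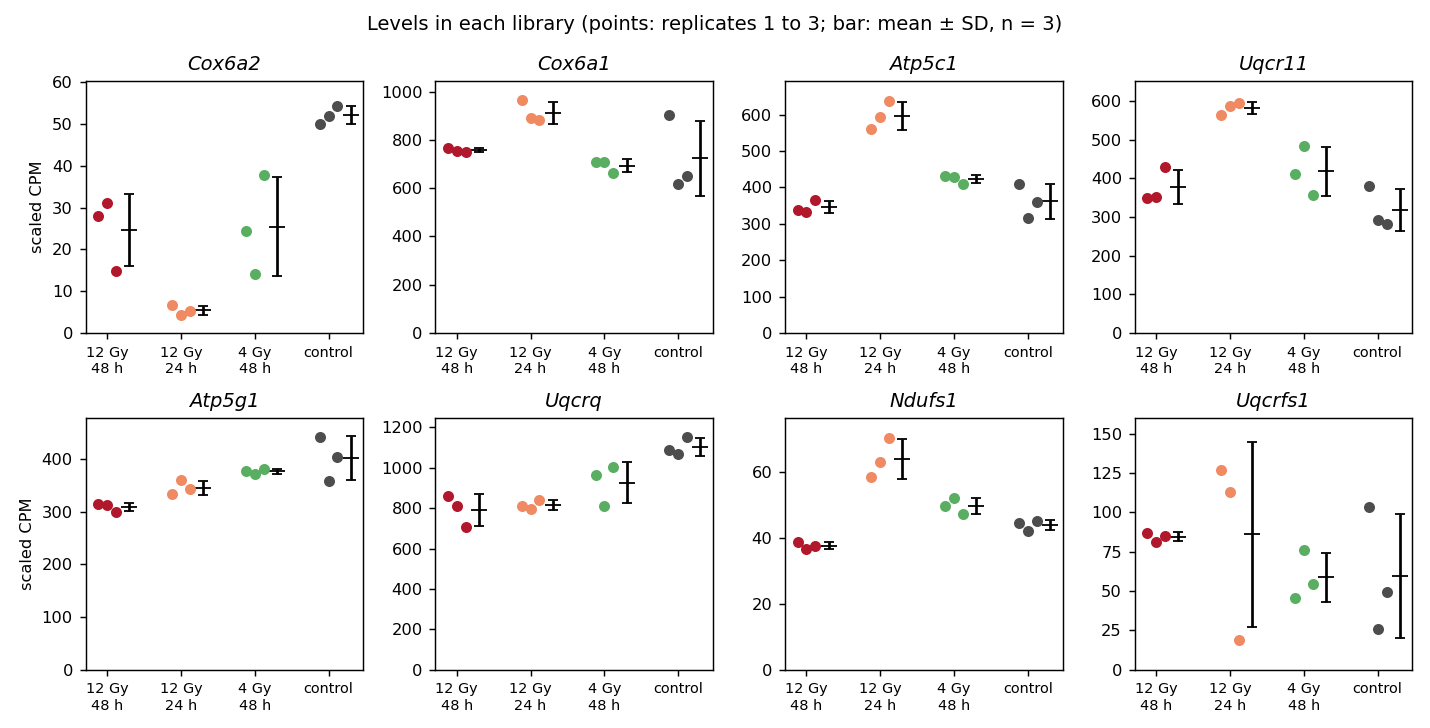
Scaled CPM (axes from 0) of 8 members in each library, with group means and SD (n = 3). Cox6a2 is lowest at 12Gy_24h (4.41 to 6.63 CPM) and highest in control (50.1 to 54.4), Atp5c1 and Uqcr11 are highest at 12Gy_24h, Uqcrq is highest in control, and Uqcrfs1 varies within groups.

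Complex IV reduces oxygen to water, and its nuclear subunits surround a core encoded in mitochondrial DNA. Of 11 tested subunits of the common set, 7 were lower at 12Gy_48h than at 12Gy_24h, 6 of them with known genes alone, and 0 were higher (0 at an unadjusted p under 0.05 in edgeR, 0 by DESeq2). Known genes gave 15.6% lower and 9.97% higher in that comparison, or 12.6 and 11.1% alone. Cox7b had 559, 571 and 664 CPM at 12Gy_48h, 887, 929 and 951 at 12Gy_24h, 623, 734 and 666 at 4Gy_48h, and 658, 608 and 604 in control. The 12Gy_24h libraries did not overlap any other group, and the change at 12Gy_48h was -0.63 ± 0.09 (edgeR adjusted p = 0.000142). Cox7a2, Cox6b1, Cox6c and Cox7c were lower in the same comparison, with changes of -0.61, -0.58, -0.58 and -0.54. Cox7a2 was also lower at 12Gy_48h than in control, 558 ± 31.1 against 723 ± 83.1 CPM (SD, n = 3 each; -0.37, edgeR adjusted p = 0.00605).

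The regulatory subunit Cox4i1 averaged 827 ± 15.4 CPM at 12Gy_48h, 1018 ± 42.2 at 12Gy_24h, 787 ± 37.6 at 4Gy_48h and 831 ± 148 in control. Its 12Gy_24h level passed against both other groups over all genes but against neither with known genes alone (adjusted p = 0.075 for 12Gy_48h against 12Gy_24h, 0.74 for 12Gy_24h against control), and the call against 12Gy_24h was lost without any of the 3 libraries at 12Gy_48h (adjusted p 0.0613 to 0.0947). Cox7a2l, which joins complexes III and IV into supercomplexes, stayed between 401 and 482 CPM in the 12 libraries and passed in none of the comparisons over all genes. Cox8a had 1910, 1916 and 1947 CPM at 12Gy_48h, 2530, 2527 and 2602 at 12Gy_24h, 1963, 2195 and 2028 at 4Gy_48h, and 3024, 1782 and 2013 in control. It was lower at 12Gy_48h than at 12Gy_24h (-0.41, edgeR adjusted p = 0.0292), a call lost without 12Gy_48h replicate 1 or 3 or 12Gy_24h replicate 1 (adjusted p 0.0555 to 0.0783). Against control its 12Gy_48h change was -0.24, and 0.03 without control replicate 1. Cox5a had 432, 437 and 185 CPM at 12Gy_24h and 503, 245 and 379 in control, and no comparison of it passed.

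Cox6a2, the heart and skeletal muscle form of subunit VIa, had the largest change of any tested member in every comparison with control. It had 28.0, 31.1 and 14.9 CPM at 12Gy_48h, 6.63, 4.41 and 5.25 at 12Gy_24h, 24.4, 14.1 and 37.8 at 4Gy_48h, and 50.1, 52.0 and 54.4 in control. The 3 controls were the 3 highest libraries and the 3 at 12Gy_24h the lowest, with no overlap. At 12Gy_24h it was -3.25 ± 0.33 (log2) against control (edgeR adjusted p = 7.63e-07), 9.52-fold lower. At 12Gy_48h it was -1.08 ± 0.27 (adjusted p = 0.00593), and it was 2.17 ± 0.35 higher there than at 12Gy_24h (adjusted p = 0.000255), 4.51-fold. At 4Gy_48h it was -1.04 (adjusted p = 0.0133), lost without 4Gy_48h replicate 1 (adjusted p = 0.0537) or replicate 2 (adjusted p = 0.0667). These directions were the same with known genes alone.

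Cox6a1, the form found in most tissues, averaged 758 ± 9.05 CPM at 12Gy_48h, 912 ± 45.7 at 12Gy_24h, 693 ± 27.7 at 4Gy_48h and 724 ± 156 in control. Per kilobase of transcript, Cox6a1 stood at 1328, 1597, 1214 and 1268 CPM and Cox6a2 at 36.3, 7.99, 37.4 and 76.7 CPM in those groups, so Cox6a1 was the main form throughout. Cox6a2 lies at chr7:128205435-128206387 on the minus strand (GRCm38) and overlaps Itgad on the other strand, which had at most 0.247 CPM in any library. Other muscle transcripts were scarce: Ckm and Myh7 lay between 0 and 0.785 CPM, and Tnnt2 at 6.88 to 12.3 CPM at 12Gy_48h, 5.84 to 9.92 at 12Gy_24h, 7.16 to 11.2 at 4Gy_48h and 5.36 to 6.40 in control. Cox7a1, the muscle form of subunit VIIa, had 4.51, 6.06 and 10.8 CPM at 12Gy_24h against 6.02, 2.82 and 1.07 in control. Its groups overlapped, and its call (1.03, edgeR adjusted p = 0.0492) was lost with known genes alone (adjusted p = 0.19) and without 12Gy_24h replicate 3, control replicate 2 or control replicate 3 (adjusted p 0.0913 to 0.169).

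Complex V makes ATP in its F1 head, turned by a ring in the membrane. All 5 F1 genes were higher at 12Gy_24h than in control over all genes, and Atp5a1, Atp5b and Atp5c1 also with known genes alone. Known genes gave 26.5% higher in that comparison, or 9.15% alone. Atp5b, the catalytic beta subunit and among the most abundant members, had 1091, 1040 and 1107 CPM at 12Gy_48h, 1607, 1680 and 1795 at 12Gy_24h, 1236, 1253 and 1229 at 4Gy_48h, and 1210, 997 and 1184 in control. Atp5c1, the gamma shaft that the ring turns, had 339, 333 and 365 CPM at 12Gy_48h, 561, 594 and 637 at 12Gy_24h, 431, 429 and 409 at 4Gy_48h, and 410, 315 and 360 in control. In both genes the 12Gy_24h libraries stood above all others. Against control at 12Gy_24h, Atp5c1 was 0.72 ± 0.10 higher (edgeR adjusted p = 2.17e-05), Atp5a1, the alpha subunit, 0.59 (adjusted p = 9.60e-05) and Atp5b 0.58 (adjusted p = 3.11e-05), with 0.49, 0.36 and 0.35 when known genes were scaled alone.

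At 12Gy_48h, 4 of the 5 F1 genes were lower than at 12Gy_24h. Known genes gave 15.6% lower in that comparison, or 12.6% alone, and these shares also stand beside the stalk and membrane genes below. Atp5c1 changed by -0.79 ± 0.10 (edgeR adjusted p = 4.02e-05), Atp5b by -0.65 (adjusted p = 4.65e-05) and Atp5a1 by -0.61 (adjusted p = 0.000249), and each passed with any library left out. Atp5d changed by -0.40 (edgeR adjusted p = 0.0306). That call was lost without any of the 3 libraries at 12Gy_48h or 12Gy_24h replicate 1 (adjusted p 0.0507 to 0.0925). It was also lost when the length trend was removed (adjusted p = 0.0984). Atp5e, the epsilon subunit, changed by -0.30 and missed (adjusted p = 0.0691). At 12Gy_48h against control the F1 genes lay between -0.07 and 0.07, and 0 of 5 passed in edgeR (0 at an unadjusted p under 0.05, 0 by DESeq2), while with known genes alone Atp5b was lower (-0.25, adjusted p = 0.043). Of the 8 stalk and membrane genes, 5 were lower at 12Gy_48h than at 12Gy_24h on both scalings, among them Atp5l (-0.59) and Atp5f1 (-0.53), the membrane g and stator b subunits. Atp5k, the e subunit that helps synthase dimers form, had 326 to 358 CPM at 12Gy_48h against 482, 334 and 393 in control and passed in no comparison over all genes.

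The ring subunit c is made from 3 genes, Atp5g1, Atp5g2 and Atp5g3, which encode the same mature protein behind different import sequences. Atp5g1 averaged 309 ± 8.29 CPM at 12Gy_48h, 345 ± 14.0 at 12Gy_24h, 376 ± 4.66 at 4Gy_48h and 402 ± 42.3 in control. Atp5g3 averaged 683 ± 85.9, 1021 ± 67.6, 721 ± 103 and 698 ± 93.0 CPM in those groups. Their orders differed: Atp5g1 was highest in control and lower at 12Gy_48h (-0.38, edgeR adjusted p = 0.00609), while Atp5g3 was highest at 12Gy_24h (0.55 against control, adjusted p = 0.00148, and 0.31 with known genes alone, adjusted p = 0.068). Whether they differ in their change was not tested.

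Atp5g2 is uncertain. Its own locus had 219, 234 and 217 CPM at 12Gy_48h, 349, 336 and 376 at 12Gy_24h, 273, 252 and 279 at 4Gy_48h, and 275, 293 and 274 in control, and it changed by -0.66 ± 0.09 at 12Gy_48h against 12Gy_24h (edgeR adjusted p = 8.33e-05). The table's database matches assign 2 loci without annotation to the same gene, with 13489 and 9613 reads against 12967 on the gene itself. Summed over the 3 loci, the deposited CPM were 727, 716 and 707 at 12Gy_48h, 762, 754 and 764 at 12Gy_24h, 835, 843 and 802 at 4Gy_48h, and 819, 761 and 769 in control. These deposited CPM carry no TMM scaling, whereas the changes that follow were fitted after it. The TMM factors were lowest in the 12Gy_24h libraries and highest in the 12Gy_48h libraries. The unscaled levels therefore showed a smaller fall from 12Gy_24h to 12Gy_48h. At 12Gy_24h they overlapped control, with a highest library of 764 against 819. After scaling, the sum changed by -0.26 at 12Gy_48h against 12Gy_24h, which passed. It changed by 0.04 at 12Gy_24h against control, where the gene alone had 0.33 and passed. At 12Gy_48h against control the gene alone had -0.33 and passed, and the sum did not pass. All 17 loci matched to members held 23488 reads, and each of the other 15 had at most 220. How reads were split among copies is not given in the sources used here.

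**Figure D4:**
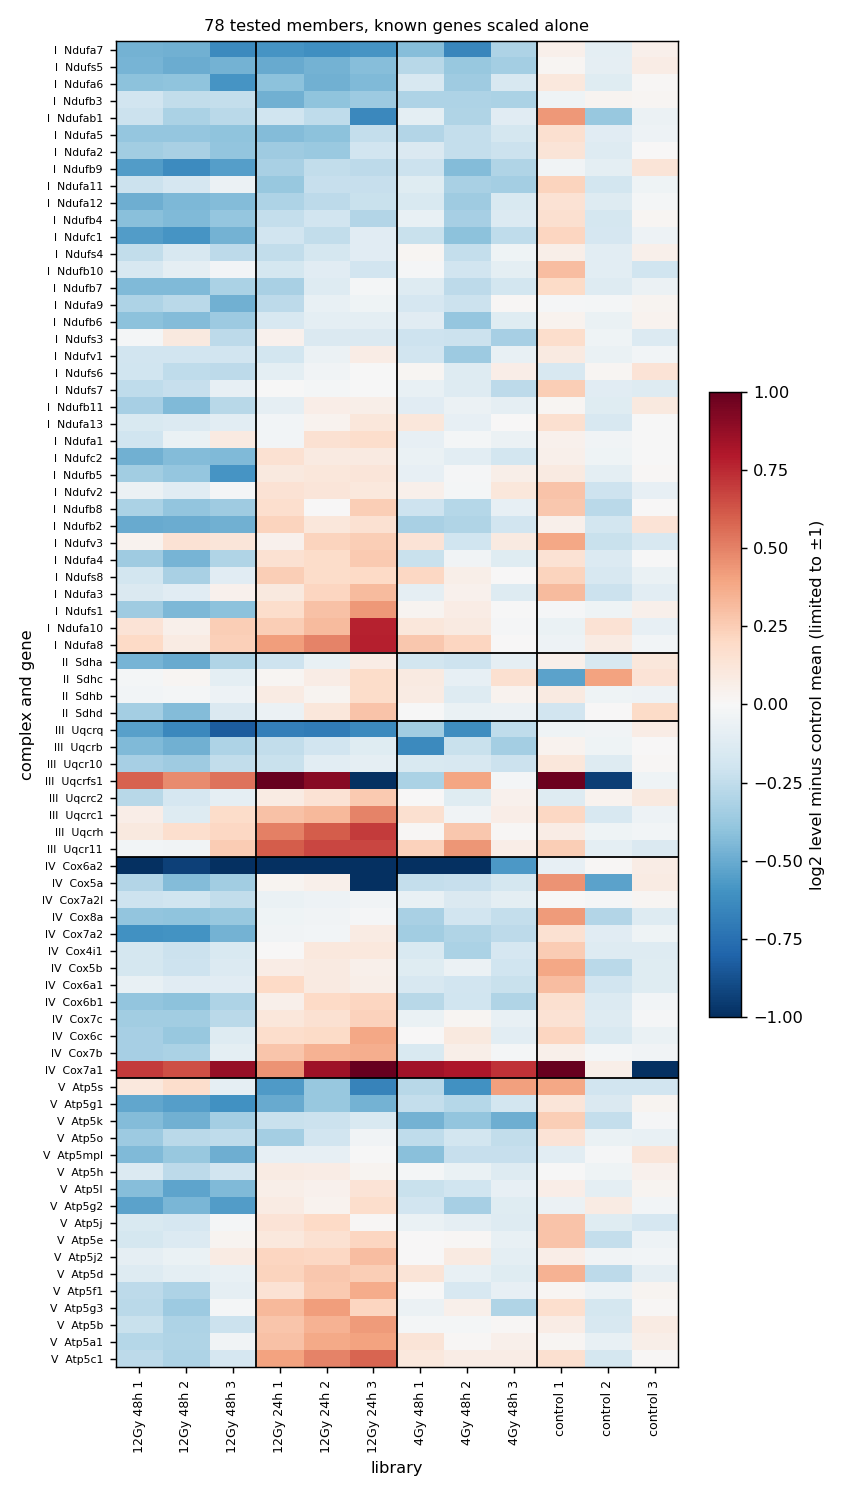
Level of 78 tested members in each library as log2 difference from the control mean (pseudocount 0.5 CPM, known genes scaled alone, colours limited to ±1), sorted within each complex by the 12Gy_24h mean. The 12Gy_48h columns are mostly blue, the 12Gy_24h columns are red for most of complex V and blue for Ndufa7, Uqcrq and Atp5g1, and control replicate 1 is redder than the other controls.

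At 4Gy_48h few members passed against control. In edgeR, 2 of 79 (2.53%), Cox6a2 and Ndufa7, were lower and 0 higher, against 13% and 4.53% of all genes and 0.877% and 6.21% of known genes. At an unadjusted p under 0.05 there were 5 lower and 5 higher, and DESeq2 called 3 and 0. With known genes alone 3 of 79 were lower, the third being Atp5k at -0.47 (adjusted p = 0.037), against 0.57% lower and 0.754% higher of known genes, and with the length trend removed none was (0.428% of known genes). Leaving out control replicate 1 gave 8 higher and 1 lower, and leaving out 4Gy_48h replicate 1 or 2 gave 0 lower. The median was 0.02, or -0.13 with known genes alone, where the median known gene was at 0.14 and -0.01. With known genes alone, 64 of 79 members had a negative change, against 5060 of 9809 known genes. The median was -0.05 with the length trend also removed. Between the doses at 48 h, Ndufb5 was the 1 member lower at 12Gy_48h than at 4Gy_48h, with 139, 136 and 118 CPM against 163, 174 and 176 (-0.39, edgeR adjusted p = 0.0454), against 2.49% lower and 2.19% higher of all genes and 1.55% and 2.79% of known genes. That call was lost with each of the 6 libraries left out (adjusted p 0.0737 to 0.156). No member was higher (0 at an unadjusted p under 0.05, 0 by DESeq2), and 7 were lower with known genes alone, 8.86% against 3.22% (2.91% higher). Without the length trend 3 were lower, against 3.02% of known genes (2.8% higher), and the median member changed by -0.10, or -0.14 with known genes alone.

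Replicates of a member lay close together in the irradiated groups and farther apart in control. The median coefficient of variation of a tested member was 4.33% at 12Gy_48h, 5.20% at 12Gy_24h, 5.97% at 4Gy_48h and 11.3% in control.

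Genes that feed or surround the chain were read from lists of related mitochondrial genes. Of 18 tested genes of the citric acid cycle and pyruvate oxidation, 12 were higher at 12Gy_24h than in control and 12 were lower at 12Gy_48h than at 12Gy_24h, with 4 and 9 when known genes were scaled alone. Among all known genes 26.5% were higher and 15.6% lower in those comparisons, or 9.15 and 12.6% alone, and the same shares stand beside the carriers and the mitochondrially encoded genes below. Citrate synthase, Cs, had 411, 382 and 412 CPM at 12Gy_48h, 552, 535 and 668 at 12Gy_24h, 409, 450 and 429 at 4Gy_48h, and 367, 364 and 319 in control (0.74 at 12Gy_24h against control, edgeR adjusted p = 1.8e-05). Idh2, an isocitrate dehydrogenase, was 1.05 higher in that comparison, and Dlat and Pdha1, of the pyruvate dehydrogenase complex, were 0.69 and 0.52 higher, and Pdha1 missed with known genes alone. Of 11 carriers and exchangers, 7 were higher at 12Gy_24h, 6 with known genes alone, and 8 were lower and 1 higher at 12Gy_48h than at 12Gy_24h, 7 and 1 with known genes alone.

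The ADP/ATP carriers and the phosphate carrier supply complex V with its substrates. Slc25a4, an ADP/ATP carrier, had 922, 853 and 1135 CPM at 12Gy_48h, 1506, 1616 and 1964 at 12Gy_24h, 1059, 1141 and 993 at 4Gy_48h, and 875, 786 and 755 in control. At 12Gy_24h against control it was 1.07 higher, the phosphate carrier Slc25a3 1.14 and the ADP/ATP carrier Slc25a5 0.89 (edgeR adjusted p = 1.6e-06, 3.5e-06 and 1.2e-05), and from 12Gy_24h to 12Gy_48h they changed by -0.80, -0.93 and -1.03. In a different comparison, 12Gy_48h against control, cytochrome c, Cycs, was lower (-0.40, edgeR adjusted p = 0.011). Of 12 tested subunits encoded in mitochondrial DNA, 5 were higher at 12Gy_24h than in control and 5 lower at 12Gy_48h than at 12Gy_24h, 4 and 4 with known genes alone. Cytochrome b, mt-Cytb, had 1339, 1238 and 1842 CPM at 12Gy_48h, 2244, 2444 and 2192 at 12Gy_24h, 1446, 2146 and 1496 at 4Gy_48h, and 1373, 1468 and 1477 in control (0.67 at 12Gy_24h against control, edgeR adjusted p = 0.0011).

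Of 53 tested assembly factors, 9 were higher and 3 lower at 12Gy_24h than in control, and 9 lower at 12Gy_48h than at 12Gy_24h. With known genes alone these were 2 higher, 7 lower and 8 lower. Known genes gave 26.5% higher and 3.99% lower in the first comparison and 15.6% lower in the second, or 9.15, 7.91 and 12.6% alone, so most of these counts were near or below what all known genes gave. Coa7, a complex IV assembly factor, was 0.89 higher at 12Gy_24h and Cox20, which matures a mitochondrially encoded subunit, -0.57. Of 13 tested regulators of mitochondrial biogenesis, only the DNA polymerase gene Polg passed at 12Gy_24h against control (0.62, adjusted p = 0.0017), and not with known genes alone, where 2 regulators were lower. The coactivator Ppargc1a had at most 0.784 CPM in any library. Among 5 tested genes of mitophagy and the hypoxia switch, the mitophagy receptors Bnip3 and Bnip3l were 1.48 and 0.80 higher at 12Gy_24h than in control, and the protease Lonp1 was -0.58. Of subunits outside the symbol rule, Usmg5, a small complex V subunit, was lower at 12Gy_48h than at 12Gy_24h (-0.44, edgeR adjusted p = 0.000549), Atpif1, the complex V inhibitor, was lower at 12Gy_48h than in control (-0.23, adjusted p = 0.0496), and Cyc1, the cytochrome of complex III, passed in none of the comparisons.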

How the data were processed

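RNA was measured in 12 libraries of MODE-K cells in 4 groups of 3, named by dose and time in the labels. The authors deposited whole-number counts of reads per gene and CPM, which matched counts divided by the column totals to within 4.78e-06. Per the submitters' processing notes, reads were trimmed with cutadapt 1.9 and checked with FastQC. The sources used here give no aligner, build, annotation, strandedness or settled read platform, and the authors' own test columns were not used. Library totals ran from 3616416 to 4831641 reads, and precision is that of counting plus replicate spread.

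The test was edgeR's (version 4.0.16, R 4.3.3) two-sided quasi-likelihood test after filterByExpr and TMM, with the 12 libraries in a single model that has a mean for each group. The filter kept 15086 genes, 9809 of them known, and p-values were adjusted over all genes tested. The biological coefficient of variation was 0.144, or 0.125 when the 9816 known genes passing alone were scaled and tested. Means ± SD are CPM after TMM scaling. The pipeline was tested on simulated data. Alternatives, run with edgeR or DESeq2 1.42.0, were other scalings and filters, the groups compared alone, each library left out, and, added after the data were seen, removal of the length trend and the sum of the Atp5g2 loci. Libraries were left out in fits over all genes only. Transcript lengths and positions are from GENCODE (GRCm38), promoters from RefSeq.

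The members and lists were chosen with earlier results of these data known. Named members were, by rule, up to 6 higher and 6 lower called members against control and up to 4 each in the other comparisons, with at least 10 CPM and no overlap between the groups, plus a fixed set of members given whatever their values, and up to 4 called genes of each related list. Other members and genes named were chosen after their values were seen. The labels state no pairing by replicate number, and no shared deviation of same-numbered libraries was seen. A result for 1 member is not reported here.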

Additional observations from a re-analysis of the deposited data

Results flagged for a closer look

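After 12 Gy, levels at 48 h and 24 h differed for 5 members named by rule, by edgeR's test of 12Gy_48h against 12Gy_24h over all genes. The values (log2, 12Gy_48h against 12Gy_24h) were -0.7656 for Ndufs1, -0.6631 for Atp5g2, -0.7892 for Atp5c1, -0.7084 for Ndufb2 and 2.173 for Cox6a2. The rule that named these members required a call in this comparison and no overlap between its groups, so neither adds support. For the first 4 genes every 12Gy_48h library lay below every 12Gy_24h library, and for Cox6a2 every 12Gy_48h library lay above. The Atp5g2 value was -0.26 when the loci matched to that gene were added. The share of reads on loci without annotation was 14.0 to 15.1% at 12Gy_48h and 11.9 to 12.0% at 12Gy_24h. With known genes scaled and tested alone, the values in the same order were -0.72, -0.61, -0.74, -0.66 and 2.22, and each passed in edgeR. Any further part of that share in these values was not tested. With unirradiated cells taken at 0 h only, a change in the effect of 12 Gy and a change with time in culture cannot be told apart.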

How the results depend on the processing

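Counts of members higher and lower are given in that order. With known genes alone they were 0 and 35 at 12Gy_48h against control, 10 and 10 at 12Gy_24h against control, and 7 lower at 12Gy_48h against 4Gy_48h; the medians were -0.2515, 0.058 and -0.139, and -0.1259 at 4Gy_48h against control, where the sign turned. Removing the length trend as well gave medians of -0.13, 0.1178, -0.0528, -0.1396 and -0.0521 for 12Gy_48h, 12Gy_24h and 4Gy_48h against control, for 12Gy_48h against 12Gy_24h, and between the doses at 48 h, with 15 and 10 called at 12Gy_24h against control, 2 and 23 in 12Gy_48h against 12Gy_24h, 0 lower at 4Gy_48h against control and 3 lower in the last. With library totals only, 6 were higher at 12Gy_48h against control (median 0.0207, sign turned), 8 lower at 12Gy_24h against control (median 0.2005), 1 higher at 4Gy_48h against control, 3 and 21 in 12Gy_48h against 12Gy_24h (median -0.1213) and 0 lower in 12Gy_48h against 4Gy_48h (median -0.0104). With no filter the counts were 4 and 5 at 12Gy_48h against control (median 0.0051, sign turned), 2 lower at 12Gy_24h (median 0.4476), 2 and 1 at 4Gy_48h (median 0.1025) and 0 lower between the doses, and the median of 12Gy_48h against 12Gy_24h was -0.3822. RLE scaling gave medians of 0.3391 at 12Gy_24h and -0.0056 at 4Gy_48h against control and -0.3756 for 12Gy_48h against 12Gy_24h, and DESeq2 gave 0.3388, -0.0057 and -0.3756 with 3 lower between the doses. A minimum of 5 CPM gave 1 higher at 4Gy_48h and 2 lower between the doses, and the groups compared alone gave 1 lower (median 0.0518) and 2 lower. The median known gene is not given here for library totals only, no filter, RLE, DESeq2, a minimum of 5 CPM or the groups compared alone. In those fits a shift of the members cannot be told from a shift of all known genes. The cause of these shifts was not tested.

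Leaving out 1 library moved the counts to 0 to 10 higher and 6 to 15 lower at 12Gy_48h, 40 to 46 higher and 2 to 3 lower at 12Gy_24h and 0 to 8 higher and 0 to 3 lower at 4Gy_48h against control, to 29 to 44 lower (1 higher in each) for 12Gy_48h against 12Gy_24h, and to 0 lower between the doses. Medians ran from -0.1126 to -0.0066, 0.2992 to 0.4046, -0.0015 (without control replicate 2, sign turned) to 0.1024, -0.3924 to -0.2914 and -0.1068 to -0.0811. Each such fit was rescaled, and the median known gene at 12Gy_24h against control then lay between 0.25 and 0.35. It lay between 0.20 and 0.23 at 12Gy_48h and between 0.13 and 0.18 at 4Gy_48h against control. For 12Gy_48h against 12Gy_24h it was -0.16 to -0.06, and between the doses 0.03 to 0.08. Atp5b at 12Gy_48h against control turned sign with library totals only (0.0186), no filter (0.0051), without 12Gy_48h replicate 2 (0.0053) and without control replicate 3 (0.0059), and Cox8a without control replicate 1 (0.0295, other libraries left out giving values down to -0.3483).

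No shared deviation by replicate number was seen: deviations of same-numbered libraries correlated between -0.0948 and 0.113 over 18 pairs, against -0.114 and 0.154 over 36 others. With 3 libraries per group this cannot show that the libraries were unpaired. With the replicate block, counts were 2 and 14, 38 and 3, and 0 and 2 against control at 12Gy_48h, 12Gy_24h and 4Gy_48h, 1 and 38 for 12Gy_48h against 12Gy_24h, and 0 lower between the doses.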
